A study of Mus musculus with 6 samples.

Results

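The transcripts described here are those of the kinesins, motor proteins that walk along microtubules or take them apart, and of the centromere proteins (CENPs), which build the platform on which chromosomes attach to the mitotic spindle. They were chosen by symbol, as rows starting with Kif and a number or with Cenp and letters, kept where 3 or more of the 6 libraries reached 1 TPM. TPM is a measure of abundance: a transcript's reads divided by its length, then scaled by the library's total of such values. Of 57 matching symbols, 44 passed, 26 of them Kif and 18 Cenp, among 13575 tested genes and 35869 listed symbols. All 6 libraries are polyadenylated RNA of mouse acute myeloid leukaemia (AML) cells made with a retrovirus that carries the MLL-AF9 fusion oncogene, and all were grown with the cytokines SCF, IL6 and IL3. Both groups carried floxed Chaf1b alleles and a transduced CreERT2 recombinase, so neither was free of Cre. In the knockout group (KO, 3 libraries) β-estradiol was added to delete Chaf1b, a subunit of the histone chaperone complex CAF-1, and in the control group (WT, 3 libraries) ethanol was added, with RNA taken 48 h after induction. The ligand was given to KO cells alone, so the deletion and the ligand cannot be told apart. The labels speak of clones without saying whether replicates were separate clones or cultures, so the p-values reflect only how far these libraries spread, which may be technical.

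Mitotic kinesins push spindle poles apart, move chromosomes and build the central spindle at cytokinesis, and most are known to be transcribed late in the cell cycle. Centromeres are marked by nucleosomes with the histone H3 variant CENP-A, on which the constitutive centromere-associated network (the inner CENPs) sits. The outer kinetochore, with its motor CENP-E, is built on this network and binds microtubules. Transport kinesins carry organelles, vesicles and RNA in cells whether they divide or not. CAF-1 places histones on newly copied DNA, and AML cells in culture divide.

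Promoter sequences come first, as a property that neither the choice of members nor the expression values used. A RefSeq table of promoters on GRCm38.p6, which is the mm10 assembly, gave a window of 300 bases (250 before and 50 after the start) for 39 of the 44 members. The letters TTTGAA (the core of the cell cycle genes homology region, CHR), read on both strands and so also as TTCAAA, were in the window of 9 of 10 mitotic kinesins (90.0%), 5 of 16 inner and outer CENPs (31.2%) and 0 of 8 transport kinesins, against 20.2% of all 26994 genes in the table and 14.9% of the tested genes with a window. Within 50 bases of the start the counts were 7 of 10, 4 of 16 and 0 of 8, against 5.94% of all and 4.18% of tested genes. CCAAT, the core bound by the factor NF-Y, or its reverse ATTGG, was in 6 of 10 mitotic kinesins, 12 of 16 CENPs and 3 of 8 transport kinesins, against 41.0% of all and 43.1% of tested genes. The E2F letters TTTCGCGC or TTTGGCGC, on either strand, were in 2 of 10, 1 of 16 and 0 of 8, against 0.93% of all and 1.86% of tested genes. These are matches of letters, not binding sites, and no motif searched contains another. The class counts depend on where a gene was placed: Kif2a, a microtubule depolymerase like Kif2c, was classed with the other kinesins. Its window holds neither TTTGAA nor TTCAAA. Of the 9 mitotic kinesins with these letters, Kif2c and Kif14 have windows that lie inside the gene as RefSeq lists it. For Kif2c the window is chr4:117178723-117179022 on the minus strand, in a gene from 117159633 to 117182624. For Kif14 it is chr1:136467598-136467897 on the plus strand, in a gene from 136466301 to 136555938.

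The 5 windows below run from 150 bases before to 30 bases after the start, 5′ to 3′ on the strand of the gene, with CCAAT or ATTGG and TTTGAA or TTCAAA in capitals. They show a spindle motor, a cytokinesis motor and the centromeric histone, each with both motifs, and then the transport kinesins Kif3b, with CCAAT alone, and Kif1c, with neither. These are examples and do not stand for their classes. The mitotic kinesin Kif2c, not printed, has TTCAAA 103 bases before the start used here, which lies inside the gene, and no CCAAT or ATTGG.
Kif11: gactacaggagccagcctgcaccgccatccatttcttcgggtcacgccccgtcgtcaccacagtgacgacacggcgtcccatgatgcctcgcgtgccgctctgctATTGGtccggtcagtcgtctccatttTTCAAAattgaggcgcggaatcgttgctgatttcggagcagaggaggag
Kif23: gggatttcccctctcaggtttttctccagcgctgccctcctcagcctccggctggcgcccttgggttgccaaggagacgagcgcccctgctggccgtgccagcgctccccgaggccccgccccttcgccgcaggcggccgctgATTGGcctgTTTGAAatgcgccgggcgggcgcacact
Cenpa: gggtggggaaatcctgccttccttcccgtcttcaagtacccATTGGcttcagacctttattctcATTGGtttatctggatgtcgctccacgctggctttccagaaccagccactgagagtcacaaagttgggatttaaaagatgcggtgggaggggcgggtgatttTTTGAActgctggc
Kif3b: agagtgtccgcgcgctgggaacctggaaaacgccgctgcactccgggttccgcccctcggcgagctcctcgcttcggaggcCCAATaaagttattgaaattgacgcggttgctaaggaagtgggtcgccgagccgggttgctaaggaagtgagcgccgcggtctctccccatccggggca
Kif1c: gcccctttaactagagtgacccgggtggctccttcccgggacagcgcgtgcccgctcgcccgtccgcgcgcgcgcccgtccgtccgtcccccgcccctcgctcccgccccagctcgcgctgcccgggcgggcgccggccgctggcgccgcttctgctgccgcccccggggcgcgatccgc

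Kif11 is at chr19:37376232-37376411 on the plus strand and its TTCAAA starts 19 bases before the start. Kif23 is at chr9:61946770-61946949 on the minus strand, and there TTTGAA begins at base 3 after the start. Cenpa is at chr5:30666736-30666915 on the plus strand, with TTTGAA at base 17 after the start and 2 copies of ATTGG upstream. Kif3b is at chr2:153291266-153291445 and Kif1c at chr11:70700398-70700577, both on the plus strand.

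**Figure D1:**
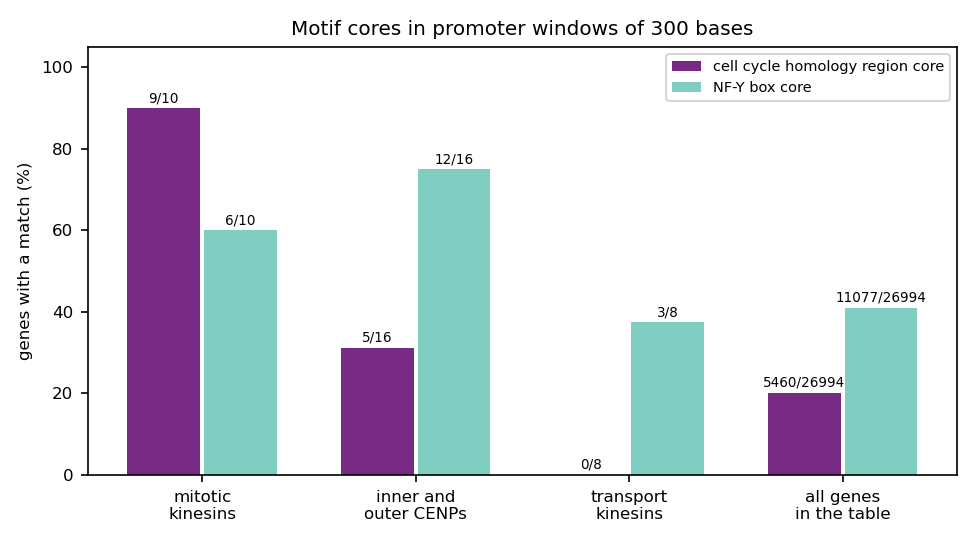
Share of genes (%, y axis) with a motif core in the 300-base RefSeq window, for mitotic kinesins, inner and outer CENPs, transport kinesins and all genes of the table; the numbers above the bars are genes with a match over genes with a window. TTTGAA (purple) is in 9 of 10 mitotic kinesins and 0 of 8 transport kinesins, while CCAAT (green) is in 6 of 10, 12 of 16 and 3 of 8.

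Chaf1b itself had 17.7, 14.4 and 14.2 TPM in KO replicates 1 to 3, against 48.6, 49.0 and 50.6 TPM in WT replicates 1 to 3 (log2 fold change -1.62, SE 0.09, limma adjusted p = 0.0058). Over all tested genes limma called 1745 higher and 830 lower in KO at an adjusted p under 0.05, 19.0% of them. Fold changes throughout are KO minus WT on log2(TPM + 1), a scale that understates the changes of low genes, and depth is unknown because TPM keeps none. Markers of myeloid progenitor and AML cells were present (12 of 12 tested, 5 higher and 1 lower), with a summed level of 10900 to 14249 TPM in KO and 7353 to 8010 TPM in WT. Late granulocyte markers (9 of 12 tested, 5 higher) summed to 686, 1548 and 1381 TPM in KO replicates 1 to 3, against 489, 119 and 151 TPM in WT replicates 1 to 3. WT replicate 1 was above both other WT libraries for 10 of these 12 markers, and only its file header mentions a replacement. Monocyte and macrophage markers (7 of 8 tested, 4 higher and 1 lower) summed to 1314 to 1615 TPM in KO and 1103 to 1197 TPM in WT. Most of that sum was Ly6c2, with 1158.4, 1321.3 and 1411.4 TPM in KO replicates 1 to 3, against 1029.5, 992.1 and 1005.6 TPM in WT replicates 1 to 3. The sum therefore hides the changes of the less abundant markers. Markers of other cell types summed to less than the progenitor markers but were partly called higher in KO: 2 of 3 tested megakaryocyte markers (summed level 24.6 to 51.5 TPM in KO and 7.2 to 14.5 TPM in WT), 2 of 5 erythroid markers (22.7 to 35.1 TPM and 13.2 to 21.6 TPM), 2 of 3 stromal and endothelial markers (102.1 to 165.9 TPM and 74.6 to 100.4 TPM) and 2 of 2 B cell markers (26.5 to 32.0 TPM and 17.0 to 20.7 TPM). Of T and NK cells 0 of 5 markers passed the filter, with Cd4, Cd8a and Ncr1 at 0 in every library, as was Ms4a1 of B cells. The part of these markers in the results below was not tested.

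After loss of Chaf1b, 0 of the 44 kinesin and CENP genes were called higher and 0 lower in KO by limma, against a background of 19.0% of tested genes (12.9% higher and 6.11% lower). The smallest adjusted p was 0.0622, for Cenpj. At an unadjusted p under 0.05 there were 8 members, 6 higher and 2 lower, against 38.0% of tested genes. The groups did not overlap for 11 members, 8 higher and 3 lower, against 42.8% of tested genes (23.4% higher and 19.5% lower). The median log2 fold change was 0.04 over the members and 0.0065 over all tested genes, and the median size of the change was 0.078 for the members and 0.161 for all tested genes. For 38 of the 44 the 95% interval lay within 0.5 log2 units of no change. In bulk RNA, fewer dividing cells and less RNA per dividing cell cannot be told apart, here and below.

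**Figure D2:**
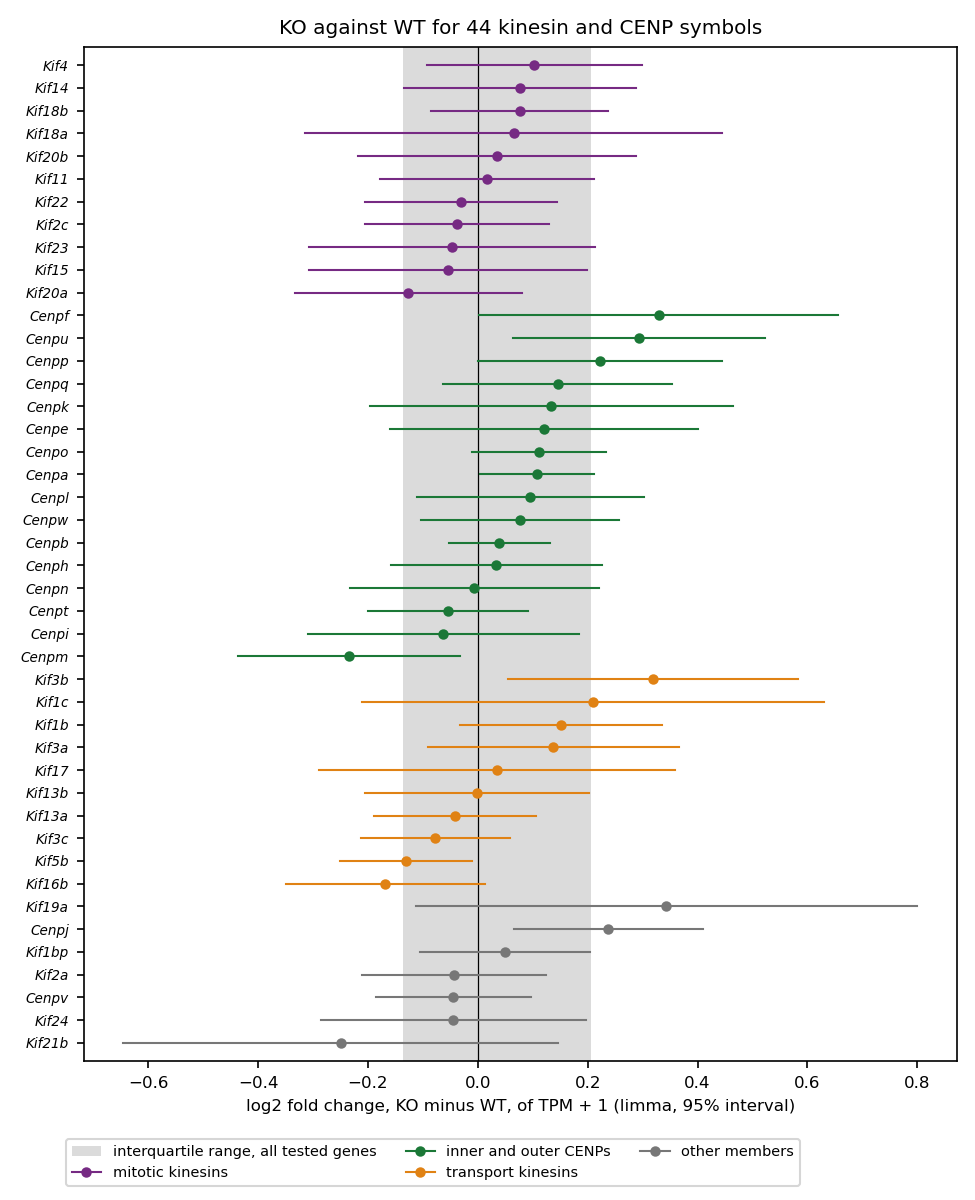
Log2 fold change, KO minus WT, of TPM + 1 (x axis) with limma's 95% interval for each of the 44 members (y axis), coloured by class and sorted within it; n = 3 libraries per group, and the grey band is the interquartile range of all tested genes. All 11 mitotic kinesins lie between -0.13 and 0.10, and Cenpj, with an adjusted p of 0.0622 (limma), has the smallest of the 44.

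Mitotic kinesins were at close levels in both groups, and 0 of 11 passed the test in either direction, against 19.0% of tested genes. Of the 11, 0 had an unadjusted p under 0.05, against 38.0%, and 0 had KO and WT values that did not overlap, against 42.8%. Their mean TPM ratios, KO over WT, ran from 0.911 (Kif20a) to 1.07 (Kif4), their median log2 fold change was 0.02, and all 11 of their intervals lay between -0.33 and 0.44. That median was -0.095 without WT replicate 1, where 8 of 11 changes were below 0, and -0.10 without KO replicate 1 as well. Without WT replicate 1, 6754 of all 13575 tested genes had a change below 0. Kif11, the motor that slides spindle poles apart and the most abundant member by TPM (chromosome 19, 37376382 to 37421863, plus strand), had 237.2, 235.3 and 225.1 TPM in KO replicates 1 to 3, against 203.4, 246.1 and 242.6 TPM in WT replicates 1 to 3. The KO values lay inside the WT range, and the low end of that range was WT replicate 1. Its log2 fold change was 0.02 (95% interval -0.18 to 0.21, limma adjusted p = 0.903), and permuting the 6 libraries (exact, two-sided) gave p = 1.0. Without WT replicate 1 the value was -0.07.

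Kif20a, which brings the chromosomal passenger complex to the central spindle, had the largest log2 fold change of the class in size. It measured 57.3, 56.8 and 56.2 TPM in KO replicates 1 to 3, against 54.4, 67.0 and 65.6 TPM in WT replicates 1 to 3. The KO libraries were near-identical and lay between WT replicate 1 and the other WT libraries. On the log2 scale it was -0.13 (SE 0.09, limma adjusted p = 0.318), and without WT replicate 1 it was -0.22 with an adjusted p of 0.0200. Of the exonic bases of Kif20a 29.3% are shared with Cdc23 on the opposite strand, and whether counting used strand is not stated in these sources.

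Kif23, a subunit of the centralspindlin complex of cytokinesis, had 23.2, 23.5 and 22.3 TPM in KO, against 20.2, 27.2 and 24.5 TPM in WT (replicates 1 to 3; log2 fold change -0.05, limma adjusted p = 0.780). Kif2c, a depolymerase that corrects wrong attachments at kinetochores, had 11.2, 11.0 and 10.9 TPM in KO, against 10.4, 11.8 and 11.9 TPM in WT (-0.04, adjusted p = 0.729). For both genes WT replicate 1 was the lowest library and the other WT libraries were above all KO libraries. The class also holds the chromokinesins Kif22 and Kif4, which bind chromosome arms, the kinesin-8 motors Kif18a and Kif18b, which shorten microtubule plus ends, the second spindle motor Kif15, and Kif14 and Kif20b of cytokinesis. These 7 ranged in KO means from 4.97 TPM (Kif14) to 88.8 TPM (Kif22) and in WT means from 4.67 TPM (Kif14) to 90.9 TPM (Kif22). Of the exonic bases of Kif4 15.1% are shared with Pdzd11 on the opposite strand, and Kif4 has a pseudogene copy that could take some of its reads. Kif2b, a close relative of Kif2c, was at 0 in every library.

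Of the 14 inner centromere genes 10 had a positive and 4 a negative log2 fold change, against 6942 and 6633 of 13575 tested genes. The test passed 0 of 14 in either direction, against 19.0% of tested genes. The groups were separate for 6 of the 14, 5 higher (Cenpa, Cenpb, Cenpo, Cenpp, Cenpu) and 1 lower (Cenpm), against 42.8% of tested genes. Cenpa, the histone that marks the centromere (chromosome 5, 30666877 to 30674837), had 56.4, 56.7 and 56.4 TPM in KO replicates 1 to 3, against 51.3, 52.4 and 53.4 TPM in WT replicates 1 to 3. Each KO value was above each WT value, by a small margin. The change was 0.11 on the log2 scale (95% interval 0.0038 to 0.21, limma adjusted p = 0.122). Permuting the libraries (exact, two-sided) gave p = 0.1, which 3 against 3 libraries cannot go below. Cenpb, which binds a sequence box in centromeric satellite DNA and was the most abundant CENP gene, had 137.6, 137.9 and 135.8 TPM in KO, against 133.7, 132.0 and 134.5 TPM in WT. Its groups also did not overlap, but the change was 0.04 (adjusted p = 0.488).

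Cenpu, of the CENP-O/P/Q/R/U complex of the inner kinetochore, had the largest log2 fold change of the inner centromere class. It had 12.2, 13.3 and 12.4 TPM in KO replicates 1 to 3, against 8.8, 11.2 and 10.5 TPM in WT replicates 1 to 3, with no overlap (log2 fold change 0.29, SE 0.10, limma adjusted p = 0.0750). Of its exonic bases 26.7% are shared with Primpol on the opposite strand. In the same complex, Cenpo had 16.1, 16.8 and 16.5 TPM in KO, against 15.1, 15.3 and 15.1 TPM in WT (0.11, adjusted p = 0.158), and Cenpp had 6.0, 6.6 and 6.4 TPM in KO, against 4.6, 5.6 and 5.7 TPM in WT (0.22, adjusted p = 0.131). Both share exonic bases with an antisense neighbour, Cenpo 19.0% with Adcy3 and Cenpp 12.3% with Ippk. Cenpq, the complex's remaining member by this rule, had 109.9, 121.6 and 110.1 TPM in KO, against 91.4, 107.0 and 110.9 TPM in WT, and these overlap (0.15, adjusted p = 0.262). Of these 4 subunits 3 had separate groups, against 42.8% of tested genes, and 0 of 4 passed the test, against 19.0%. Cenpo, Cenpp and Cenpq were singled out after their values were seen, so these counts describe the 4 genes and give no result about the complex.

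Cenpm, which sits with Cenph, Cenpi and Cenpk in another inner subcomplex, was the 1 CENP gene with all KO values below all WT values. It had 11.2, 9.8 and 10.4 TPM in KO replicates 1 to 3, against 11.3, 13.2 and 13.0 TPM in WT replicates 1 to 3 (log2 fold change -0.23, SE 0.08, limma adjusted p = 0.0937). The gap between the groups was 0.1 TPM at KO replicate 1 and WT replicate 1, and without WT replicate 1 the change was -0.30 with an adjusted p of 0.0283. Its partners lay at -0.06 (Cenpi), 0.03 (Cenph) and 0.13 (Cenpk), each with overlapping groups. The other inner genes, Cenpl, Cenpn, Cenpt and Cenpw, lay between -0.05 and 0.10, also with overlap.

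Both outer kinetochore CENPs overlapped between groups. Cenpe, the kinetochore motor that carries chromosomes to the spindle equator, had 37.2, 37.8 and 35.6 TPM in KO replicates 1 to 3, against 28.2, 35.4 and 38.8 TPM in WT replicates 1 to 3 (log2 fold change 0.12, limma adjusted p = 0.488). The WT values spread further than the KO values, and without WT replicate 1 the change was -0.0079. Cenpf, a large kinetochore and nuclear matrix protein of G2 and mitosis, had 14.2, 16.0 and 14.7 TPM in KO, against 9.6, 11.7 and 14.2 TPM in WT (0.33, 95% interval 0.0028 to 0.66, adjusted p = 0.129). KO replicate 1 and WT replicate 3 had the same value. Without WT replicate 1 the change of Cenpf was 0.20.

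**Figure D3:**
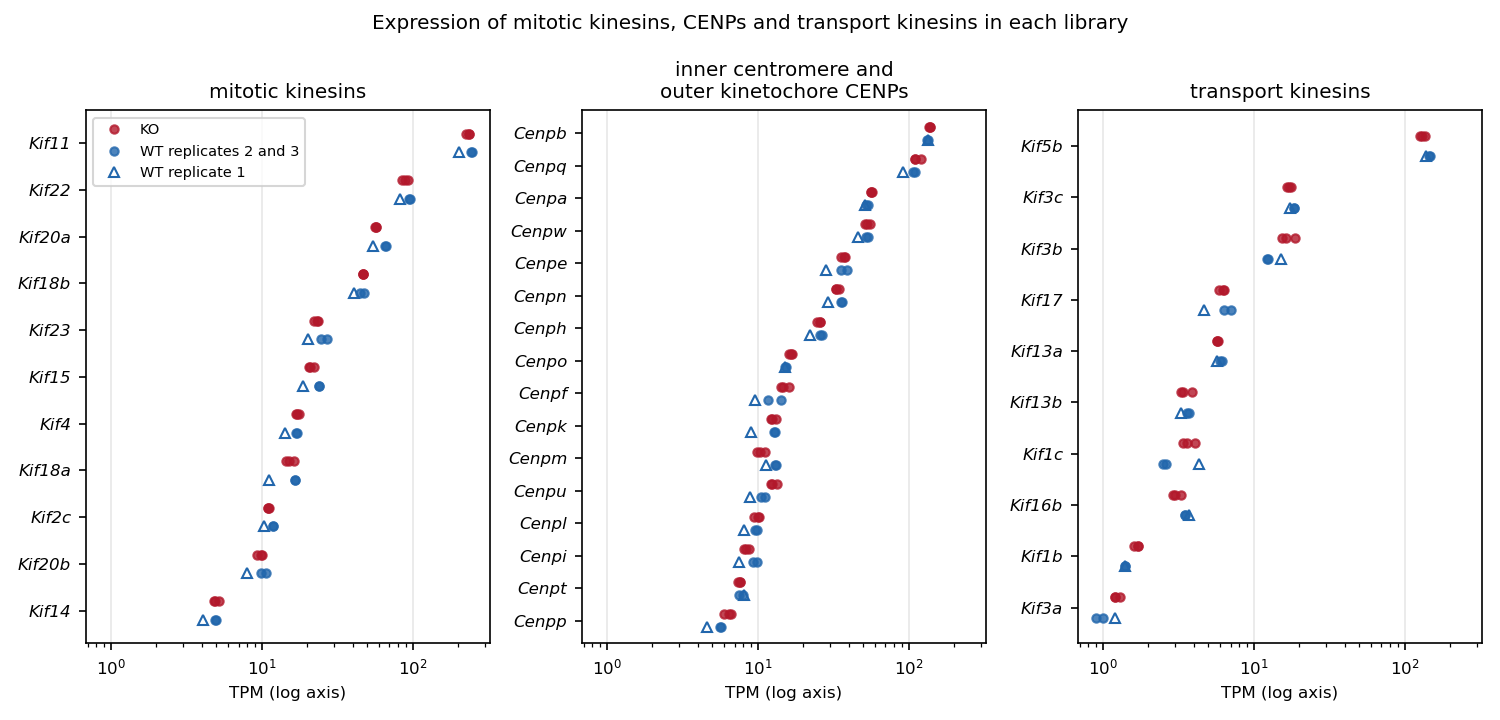
TPM (log x axis) of each mitotic kinesin, inner or outer CENP and transport kinesin that passed the filter (y axis), with KO libraries as red points above WT libraries in blue; the open triangle is WT replicate 1. For all 11 mitotic kinesins the triangle is the lowest of the 6 values, as for Kif11 at 203.4 TPM, and among transport kinesins it is lowest for 1 of 10.

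Transport kinesins lay on both sides of no change, with 0 of 10 called higher and 0 of 10 lower, against 12.9% and 6.11% of tested genes. The groups were separate for 4 of 10, with Kif3b and Kif1b higher and Kif5b and Kif16b lower, against 42.8% of tested genes. The median log2 fold change was 0.02, the range -0.17 to 0.32, and the median size 0.134, against 0.054 for mitotic kinesins and 0.161 for all tested genes. Kif5b, the widely expressed heavy chain of conventional kinesin, was by far the most abundant of the class. It had 136.9, 130.2 and 125.6 TPM in KO replicates 1 to 3, against 139.1, 144.5 and 146.4 TPM in WT replicates 1 to 3 (-0.13, SE 0.05, limma adjusted p = 0.110). All KO values were below all WT values.

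Kif3b, a motor subunit of heterotrimeric kinesin-2, which carries cargo in cilia and cytoplasm, had the largest log2 fold change of the class in size. It had 15.3, 18.6 and 16.4 TPM in KO replicates 1 to 3, against 15.2, 12.2 and 12.4 TPM in WT replicates 1 to 3 (log2 fold change 0.32, SE 0.11, limma adjusted p = 0.0852). KO replicate 1 and WT replicate 1 were 0.1 TPM apart, and without WT replicate 1 the change was 0.41 with an adjusted p of 0.0262. Its partner Kif3a was the lowest member inside the filter, with 1.2, 1.3 and 1.2 TPM in KO, against 1.2, 0.9 and 1.0 TPM in WT (0.14, adjusted p = 0.327). Kif3c, another kinesin-2 subunit, lay at -0.08 with overlap, and 35.3% of its exonic bases are shared with an antisense gene.

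Kif16b, an endosome motor, had 3.3, 3.0 and 2.9 TPM in KO replicates 1 to 3, against 3.7, 3.5 and 3.5 TPM in WT replicates 1 to 3 (-0.17, limma adjusted p = 0.153). Kif1b, a carrier of mitochondria and synaptic vesicle precursors in neurons, had 1.6, 1.7 and 1.7 TPM in KO, against 1.4 TPM in each WT library (0.15, adjusted p = 0.195). At these levels the deposited values, rounded to 0.1 TPM, move in coarse steps. Kif1c, a motor of vesicle transport, had 3.4, 4.1 and 3.6 TPM in KO, against 4.3, 2.6 and 2.5 TPM in WT (0.21, adjusted p = 0.417). WT replicate 1 was its highest library, and without it the change of Kif1c was 0.40 with an adjusted p of 0.0266. Kif13a, Kif13b and Kif17 overlapped, with changes between -0.04 and 0.04. Just outside the filter stood Kif5a, a neuronal relative of Kif5b, with 0.4, 0.9 and 0.8 TPM in KO, against 0.2 TPM in each WT library. Kif1a and Kif5c also stayed under 1 TPM.

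The remaining kinesins gave 0 of 4 genes called in either direction, against 19.0% of tested genes, and with 4 genes this count says little about them. Kif21b, which regulates microtubule growth, had 77.3, 61.2 and 59.0 TPM in KO replicates 1 to 3, against 96.7, 66.7 and 73.3 TPM in WT replicates 1 to 3 (log2 fold change -0.25, limma adjusted p = 0.305). In both groups replicate 1 was the highest library. Kif19a, a motor that limits cilium length in mice, had 4.9, 6.7 and 6.2 TPM in KO, against 6.1, 3.8 and 3.7 TPM in WT (0.34, adjusted p = 0.230). Only WT replicate 1 of the WT libraries reached the KO range, and without it the change was 0.54 with an adjusted p of 0.0308. Kif2a, a depolymerase that shares 19.2% of its exonic bases with Dimt1 on the opposite strand, and Kif24 lay at -0.04 each. Kif26b, Kif12, Kif27, Kif21a and Kif6 were at 0 in every library, Kif7, Kif9 and Kif26a stayed under 1 TPM, and so did the antisense transcript Kif16bos, which the symbol rule also took in.

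The rule also takes 3 genes outside these classes. Cenpj, which encodes a centriole assembly protein, had 8.9, 9.7 and 8.7 TPM in KO replicates 1 to 3, against 7.2, 7.5 and 8.0 TPM in WT replicates 1 to 3. Every KO value was above every WT value, and its log2 fold change was 0.24 (95% interval 0.066 to 0.41, limma adjusted p = 0.0622). Cenpv had 64.5, 61.9 and 58.3 TPM in KO, against 61.7, 66.5 and 62.3 TPM in WT (-0.04, adjusted p = 0.616), with overlap. Kif1bp, a kinesin-binding protein and not a kinesin, lay at 0.05 with overlap.

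The contrast between the mitotic classes and the transport class was smallest in 1 WT library. WT replicate 1 was the lowest of the 6 libraries for 11 of 11 mitotic kinesins, 12 of 16 inner and outer CENPs and 1 of 10 transport kinesins, while it was lowest for 24.5% of all tested genes. The depolymerase Kif2a, classed outside the mitotic kinesins, was lowest in KO replicate 3, at 14.4 TPM, against 14.5 TPM in WT replicate 1. The TPM of WT replicate 1 over the mean of WT replicates 2 and 3 had a median of 0.828 over the mitotic kinesins (0.667 for Kif18a to 0.880 for Kif18b), 0.837 over the CENPs and 0.978 over the transport kinesins. The mean log2(TPM + 1) of the mitotic kinesins minus that of the transport kinesins was 1.81, 1.77 and 1.79 in KO replicates 1 to 3, against 1.62, 1.93 and 1.93 in WT replicates 1 to 3. For the CENPs minus the transport kinesins it was 1.52, 1.53 and 1.55 in KO, against 1.32, 1.56 and 1.59 in WT. In both contrasts the KO libraries were close together and lay between WT replicate 1 and the other WT libraries. Of 12 late granulocyte markers 4 were highest of all 6 libraries in WT replicate 1, among them Ly6g, with 13.8, 26.4 and 21.8 TPM in KO replicates 1 to 3, against 62.0, 1.9 and 3.0 TPM in WT replicates 1 to 3. The others of the 4 were Mmp9, Mmp8 and Ngp. The abundant S100a8 was instead higher in every KO library, with 240.9, 558.3 and 507.3 TPM in KO, against 50.0, 37.2 and 47.6 TPM in WT. Among the WT libraries replicate 1 was the highest for S100a8 too. Their part in the pattern of the mitotic classes was not tested.

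**Figure D4:**
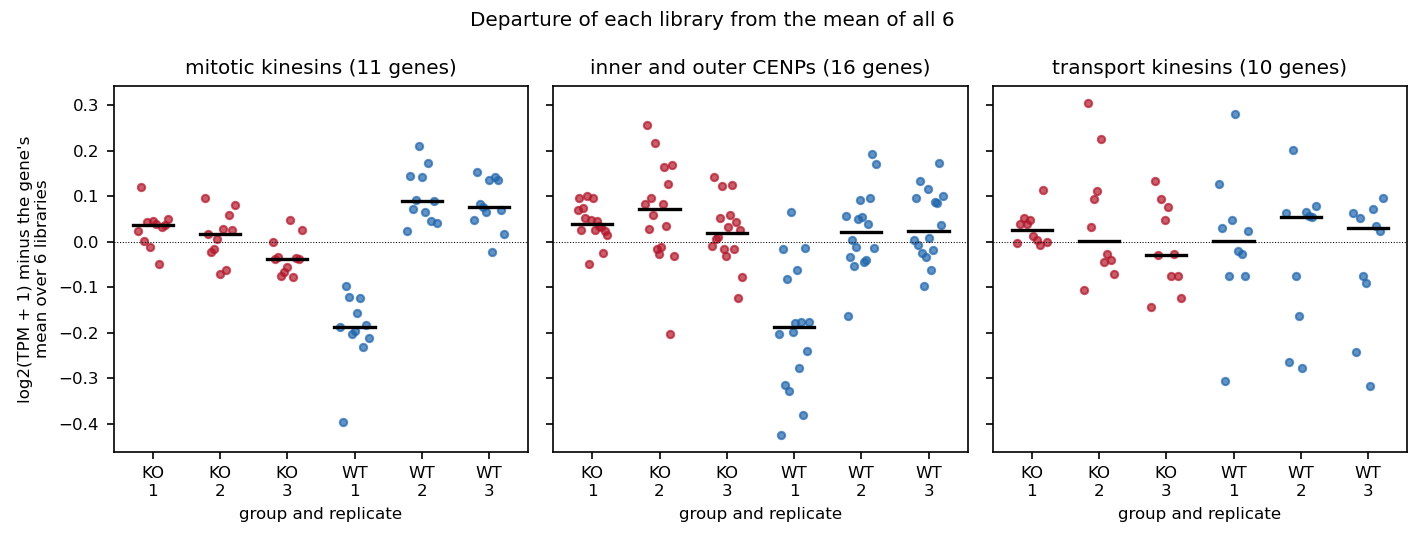
Each library's log2(TPM + 1) minus the gene's mean over all 6 libraries (y axis), by group and replicate (x axis), for mitotic kinesins, inner and outer CENPs and transport kinesins; each point is a gene and the bar is the class median. WT replicate 1 is below the mean for all 11 mitotic kinesins and has a median near that of the other libraries for the 10 transport kinesins.

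Leaving out libraries that stand apart changed the counts. Without WT replicate 1, limma called 3 members higher (Kif3b, Kif1c, Kif19a) and 2 lower (Kif20a, Cenpm) in KO, against a background of 35.7% of tested genes (21.6% higher and 14.2% lower). KO replicate 1 stood nearest to WT, with correlations across genes of 0.982 to 0.986 with the WT libraries, against 0.961 to 0.967 for the other KO libraries. Leaving it out as well gave 7 members higher and 12 lower, against 55.8% of tested genes (28.4% higher and 27.3% lower). The 7 were Cenpa, Cenpo, Cenpp, Cenpu, Kif19a, Kif1c and Kif3b, and the 12 were Cenpi, Cenpm, Cenpn, Kif15, Kif16b, Kif18a, Kif20a, Kif21b, Kif22, Kif24, Kif3c and Kif5b. By class that was 0 higher and 4 lower of 11 mitotic kinesins, 4 higher and 3 lower of 16 inner and outer CENPs, and 2 higher and 3 lower of 10 transport kinesins. The 4 mitotic kinesins had log2 fold changes of -0.13 (Kif22), -0.16 (Kif18a), -0.20 (Kif15) and -0.23 (Kif20a). KO means were below the mean of WT replicates 2 and 3 for 8 of 11 mitotic kinesins, with a median ratio of 0.933, and for 7 of 16 CENPs, with a median ratio of 1.01. Over all tested genes this held for 6709 of 13575, with a median ratio of 1.00. These fits rest on 5 and 4 libraries. KO replicate 1 was the KO library nearest to WT in these same values, so leaving it out tends to raise calls among genes in general. The calls of the fit without both libraries therefore describe those 4 libraries and give no result about the members. Leaving out KO replicate 2, KO replicate 3, WT replicate 2 or WT replicate 3 in place of these gave 0 members called, but limma then called few genes of any kind (106, 0, 23 and 14 higher and 3, 0, 2 and 1 lower in KO), so those counts say little about the members. Without KO replicate 1 alone it called 0 members, with 2063 genes higher and 1619 lower.

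**Figure D5:**
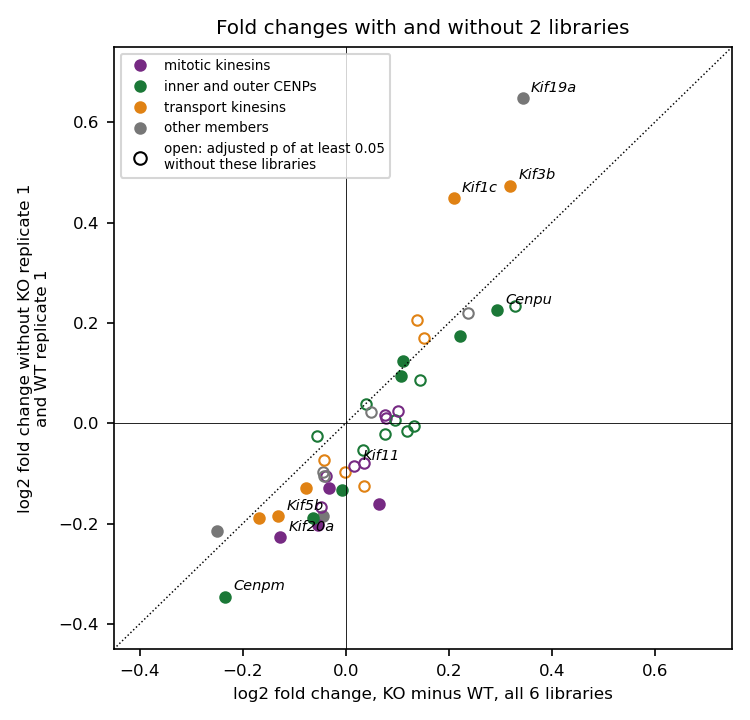
Log2 fold change, KO minus WT, of each of the 44 members with all 6 libraries (x axis) and without KO replicate 1 and WT replicate 1 (y axis); filled points have a limma adjusted p under 0.05 without these libraries, and the dotted line marks equal values. Kif1c, Kif3b and Kif19a lie above the line with positive values, and Kif20a and Cenpm lie below it with negative ones.

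Genes of the same structures that the symbol rule does not take gave few calls. Of 23 genes of the outer kinetochore and spindle checkpoint, 0 were called higher and 1 lower, against 12.9% and 6.11% of tested genes. That gene, Pmf1 of the MIS12 complex, had 76.6, 69.9 and 71.7 TPM in KO replicates 1 to 3, against 83.3, 91.9 and 89.8 TPM in WT replicates 1 to 3 (log2 fold change -0.28, SE 0.06, limma adjusted p = 0.0301). Every KO value was below every WT value, and the adjusted p was 0.0026 to 0.131 over the alternatives. Of 8 genes of CENP-A deposition and the constitutive centromere outside the rule, 1 was called higher and 0 lower, against 12.9% and 6.11%. So few genes cannot set that count apart from the background. Itgb3bp, which encodes CENP-R of the same complex as Cenpu, had 11.2, 14.7 and 13.1 TPM in KO, against 8.7, 8.5 and 8.4 TPM in WT (0.55, SE 0.10, adjusted p = 0.0210; 0.0039 to 0.107 over the alternatives), and 8.59% of its exonic bases are shared with Pgm1 on the opposite strand. Both calls held without WT replicate 1 (adjusted p = 0.0199 for Pmf1 and 0.0243 for Itgb3bp) and without KO replicate 1 (0.0191 and 0.0052). Both were lost without KO replicate 2 (0.130 and 0.0703), KO replicate 3 (0.131 and 0.107), WT replicate 2 (0.107 and 0.0773) or WT replicate 3 (0.109 and 0.0829).

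Of 18 genes of the chromosomal passenger complex and mitotic regulators, 0 were called by limma in either direction, against 19.0% of tested genes, and 0 had an unadjusted p under 0.05, against 38.0%. Of 10 tested genes among 13 kinesin adaptors and minus-end kinesins, 0 were called by limma, with 2 at an unadjusted p under 0.05, both lower in KO, against the same backgrounds. WT replicate 1 was the lowest of the 6 libraries in 18 of the 23 outer kinetochore and checkpoint genes, 6 of the 8 genes of CENP-A deposition and 13 of the 18 passenger complex and regulator genes. Without that library the calls were 1 higher and 7 lower of 23, 1 higher and 1 lower of 8, 0 higher and 2 lower of 18, and 1 higher and 0 lower of 10, in the order of the lists above, against 21.6% of tested genes higher and 14.2% lower in that fit.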

How the data were processed

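The authors deposited TPM per gene symbol, rounded to 1 decimal, for 3 KO and 3 WT libraries. Per the labels' protocols these were stranded poly(A) libraries read as 100 bp pairs to about 120 M reads each. The submitters' processing notes list mm10, featureCounts 1.6.2, STAR 2.6.1e, cutadapt 1.9.1 and Trim Galore 0.4.2; annotation, strand setting and the step to TPM are not stated there. TPM keeps no depth, so counting error is unknown and count models were not applied.

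The 13575 genes that reached 1 TPM in 3 or more libraries were compared in limma 3.58.1 (R 4.3.3) on log2(TPM + 1), with genotype as the only term, a trend of variance on mean, and two-sided p-values adjusted by Benjamini-Hochberg over all 13575. An exact permutation test was added for Cenpa and Kif11. The procedure was run on simulated data with independent noise and added changes larger than any member showed. That run says nothing about small changes or about a library that stands apart. No 2 libraries of a group shared more than 8.48% of values, so none was counted as a duplicate. Exon sharing came from the GENCODE annotation on the same assembly, and promoters from RefSeq.

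Members, classes and lists were chosen with earlier results of these data known. Named members are Cenpa, Cenpb, Cenpe, Cenpf, Kif11, Kif2c, Kif23, Kif5b and, per class, called members, the most abundant and the uncalled one with the largest change, and Kif3a and Kif5a at the edge of the filter. In the pathway lists, called genes are named. S100a8 and the other single markers, and other members given with values per library (Cenpm, Cenpo, Cenpp, Cenpq, Kif16b, Kif1b, Kif1c) were chosen after their values were seen. Alternatives were median-of-ratios scaling, pseudocounts of 0.1, 0.5 and 5, a filter at a mean of 5 TPM or none, quantile normalization, no trend, a replicate block, and libraries left out.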

Additional observations from a re-analysis of the deposited data

How the results depend on the processing

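Of 697 fits of a member under 16 alternatives, 37 changed sign and 25 brought a call; 1, Kif18a without KO replicate 1 and WT replicate 1, did both. Members called higher numbered 1 with no filter (Kif1a, listed at 0 in every WT library) and 7 without KO replicate 1 and WT replicate 1; members called lower numbered 1 with quantile normalization (Kif16b) and 12 without those 2 libraries. Mitotic kinesins and CENPs called numbered 11 without both libraries, and transport kinesins called 1 with no filter, 1 with quantile normalization and 5 without both. Leaving out single libraries gave 0 to 3 members higher, 0 to 2 lower, 0 to 2 mitotic kinesins and CENPs and 0 to 2 transport kinesins; WT replicate 1 alone brought such calls.

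All tested genes called higher numbered 2730 with no filter, 883 at a mean of at least 5 TPM and 3859 without both libraries; those called lower numbered 1722 with quantile normalization and 3710 without both. Leaving out single libraries gave 0 to 2927 higher and 0 to 1923 lower. Limma called 0 genes without KO replicate 3, with 3381 at an unadjusted p under 0.05. Of calls, 67.8% were higher with TPM as deposited, 43.9% with quantile normalization, which moved the median of all genes to -0.07, and 60.6% with median-of-ratios scaling.

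The median log2 fold change of inner and outer CENPs was 0.00020 without both libraries and 0.012 to 0.12 with single libraries left out. For mitotic kinesins, at 0.016 with all libraries, it was -0.10 without both, -0.067 with quantile normalization, -0.0076 at a mean of at least 5 TPM and -0.095 (without WT replicate 1) to 0.065 with single libraries left out. For transport kinesins it was -0.042 at a mean of at least 5 TPM, -0.17 with quantile normalization, -0.085 without both, and -0.053 to 0.058 with single libraries left out. Signs turned for Cenpe (-0.014 without both; -0.0079 to 0.22 with single libraries left out), Kif11 (-0.086; -0.072 to 0.065) and Kif23 (-0.16 to 0.045), and with quantile normalization for Kif1b (-0.20) and Kif1c (-0.069). The cause was not tested.

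Same-numbered libraries deviated with correlations of -0.199, -0.145 and -0.164. These values show no shared deviation by number, but 3 libraries per group cannot show whether same-numbered libraries were made together. With a replicate block, limma called 300 genes higher and 33 lower, 0 members among them. In that fit the calls of Pmf1 (limma adjusted p = 0.109) and Itgb3bp (0.0672) were lost.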
